A study of Homo sapiens with 6 samples.

Results

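Cultures of KOPTK1, a human leukaemia cell line of the T-cell acute lymphoblastic type, were kept for 48 h with 1 µM PD0332991 (n = 3) or with vehicle (n = 3), and total RNA of each culture was hybridised to a one-colour Affymetrix array. PD0332991, also called palbociclib, blocks the cyclin-dependent kinases CDK4 and CDK6. Both groups come from this single cell line, have no engineered allele named in the labels, and are described by the submitters as biological triplicates. The genes described here are 51 interferon-stimulated genes given by name, of which 49 were measured among the 19775 genes on the arrays that had a probe set annotated with 1 gene symbol. Each gene is represented by its probe set with the highest mean over the 6 arrays. DDX58 is listed under its current symbol RIGI, and STAT2 and UBA7 were not analysed here. The question is which sensors, regulators and effectors of the interferon response differ in level after the inhibitor.

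Interferon-stimulated genes are switched on when interferons bind their receptors and the kinases JAK1 and TYK2 activate STAT proteins. Type I interferons act mainly through a complex called ISGF3, which contains IRF9 and binds the interferon-stimulated response element in promoters, whereas interferon gamma acts mainly at a gamma-activated site. The products sense viral nucleic acids, block steps of viral replication, or feed back on the pathway, and many of the genes have a basal level without added interferon.

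The letters that these factors read stand in many of the promoters, so some of the stretches are shown with the motif in capitals. RefSeq windows of 300 bases (250 before to 50 after a gene's start, GRCh38.p14) were at hand for 38 of the 49 genes. The core of the response element was searched as GAAANNGAAA on both strands, and the gamma-activated site as TTCNNNGAA, whose letters read alike on both strands. The stretches are chr15:88638932-88638971 (plus strand) of ISG20, chr1:27672261-27672363 (minus) of IFI6, chr10:89332420-89332502 (plus) of IFIT3, chr2:162318685-162318858 (minus) of IFIH1, chr1:1013369-1013414 (plus) of ISG15, chr4:88456979-88457069 (plus) of HERC5, chr3:146544662-146544701 (minus) of PLSCR1 and chr3:122564317-122564356 (minus) of PARP9. The last lies where the windows of PARP9 and DTX3L, read in opposite directions, share 137 bases and 1 copy of the core. For the gamma-activated site, chr5:132490874-132490912 (minus) of IRF1 and chr14:24161187-24161225 (plus) of IRF9 are shown. Each stretch is written 5′ to 3′ along its gene, and capitals that begin with TTTC are the core read from the opposite strand.
ISG20: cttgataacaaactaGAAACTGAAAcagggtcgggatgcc
IFI6: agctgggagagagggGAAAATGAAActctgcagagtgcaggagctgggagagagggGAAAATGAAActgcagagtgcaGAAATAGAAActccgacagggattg
IFIT3: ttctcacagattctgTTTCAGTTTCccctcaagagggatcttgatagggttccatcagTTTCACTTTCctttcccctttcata
IFIH1: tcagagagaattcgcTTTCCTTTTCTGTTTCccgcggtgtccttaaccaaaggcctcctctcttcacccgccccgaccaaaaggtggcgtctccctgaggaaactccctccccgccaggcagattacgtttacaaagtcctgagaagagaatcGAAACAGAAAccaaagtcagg
ISG15: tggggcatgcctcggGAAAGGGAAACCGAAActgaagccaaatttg
HERC5: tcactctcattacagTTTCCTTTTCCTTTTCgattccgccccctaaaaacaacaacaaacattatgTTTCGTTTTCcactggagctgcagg
PLSCR1: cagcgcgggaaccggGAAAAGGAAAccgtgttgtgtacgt
PARP9: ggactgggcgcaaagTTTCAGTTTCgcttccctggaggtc
IRF1: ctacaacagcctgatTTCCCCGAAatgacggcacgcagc
IRF9: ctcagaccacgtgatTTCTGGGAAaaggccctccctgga

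The core of the response element was found in at least 1 window of 26 of the 38 genes, 68.4%, against 3.98% of the 15384 tested genes with a window. The gamma-activated site was found in 12 of the 38, 31.6%, against 8.97% of those genes. Across all 35116 windows of this length, 3.57% held the first motif and 7.66% the second. Such matches describe the letters in these windows only.

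Interferon-stimulated genes were mostly higher after PD0332991. Of the 49 measured, 30 were higher and 3 lower at a Benjamini-Hochberg adjusted p under 0.05 in limma, and 16 did not pass. Over all genes tested, 15.6% were higher and 13.6% lower, so that the 61.2% of interferon-stimulated genes that were higher lies above the share of all genes, and the 6.12% that were lower lies below it. Most of the listed genes are bright. In a fit of only the 9888 genes at or above the median brightness, 3261 were higher and 2901 lower. Of the 45 listed genes in that fit, 30 were higher and 4 lower, so the excess of higher genes was smaller there. The median log2 fold change of the 49 genes was 0.44, or 1.36-fold, beside 0.01 for all genes. Log2 fold changes are PD0332991 minus vehicle on log2(intensity + 16), which understates the change of dim genes. The values of the groups were fully separate for 37 of the 49 genes, beside 43.0% of all genes. In 32 of them every PD0332991 array lay above every vehicle array (23.0% of all genes), and in 5 every one lay below (20.0%). In this bulk RNA, a change in every cell and a change in the share of cells with the transcript cannot be told apart.

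**Figure D1:**
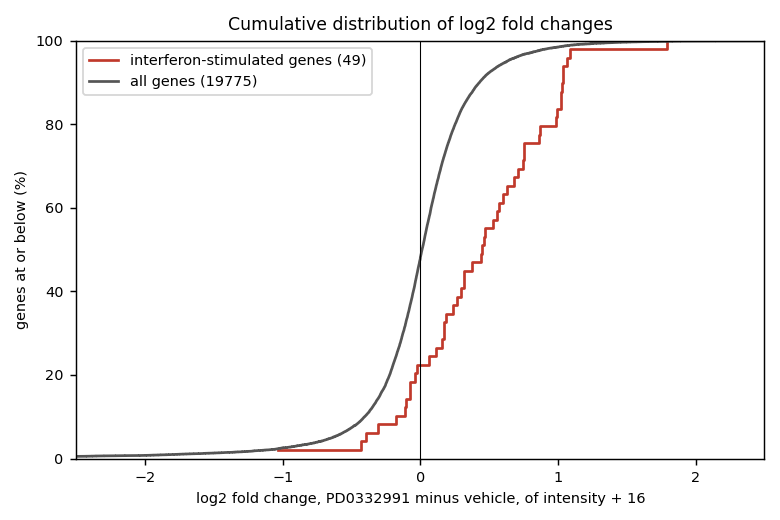
Cumulative share of genes (percent, vertical) at or below each log2 fold change of PD0332991 minus vehicle (horizontal), for the 49 interferon-stimulated genes and all 19775 genes. The curve of the interferon-stimulated genes lies to the right, with medians of 0.44 and 0.01.

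Most increases were under 2-fold. Among the 30 higher genes the log2 fold changes ran between 0.19 for DTX3L and 1.79 for ISG20, and 8 of them were at least 2-fold higher, namely ISG20, XAF1, IFI6, IRF7, NLRC5, TRIM22, IRF9 and DHX58. Of the 8, 5 lie at 1.02 to 1.04, and the count was 5 with median centring, 4 with a pseudocount of 64 and 10 with a pseudocount of 1, where MX1 and HERC6 joined. HERC5 was the only gene at least 2-fold lower. The median deviation of the 49 genes from their vehicle means was 0.45, 0.44 and 0.47 on the 3 PD0332991 arrays, and −0.01, −0.0014 and 0.02 on the 3 vehicle arrays, so no single array carried the shift.

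With vehicle, mean intensities of the 49 genes ran between 24.0 for IFI27 and 5288 for IFI16, and 45 of them had a mean over the 6 arrays at or above the median gene. In 12 genes the vehicle mean lay under 150, where arrays differ most. For 9 of these 12 the highest vehicle value was on replicate 3, which was the highest vehicle array for 47.1% of all genes. Of all 49 listed genes, 22 were highest there, so the list as a whole did not lean to that array. Intensities of different probe sets are not comparable as levels, so the 49 genes are compared below by their changes. Words such as bright and dim give only a rough place on the array.

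**Figure D2:**
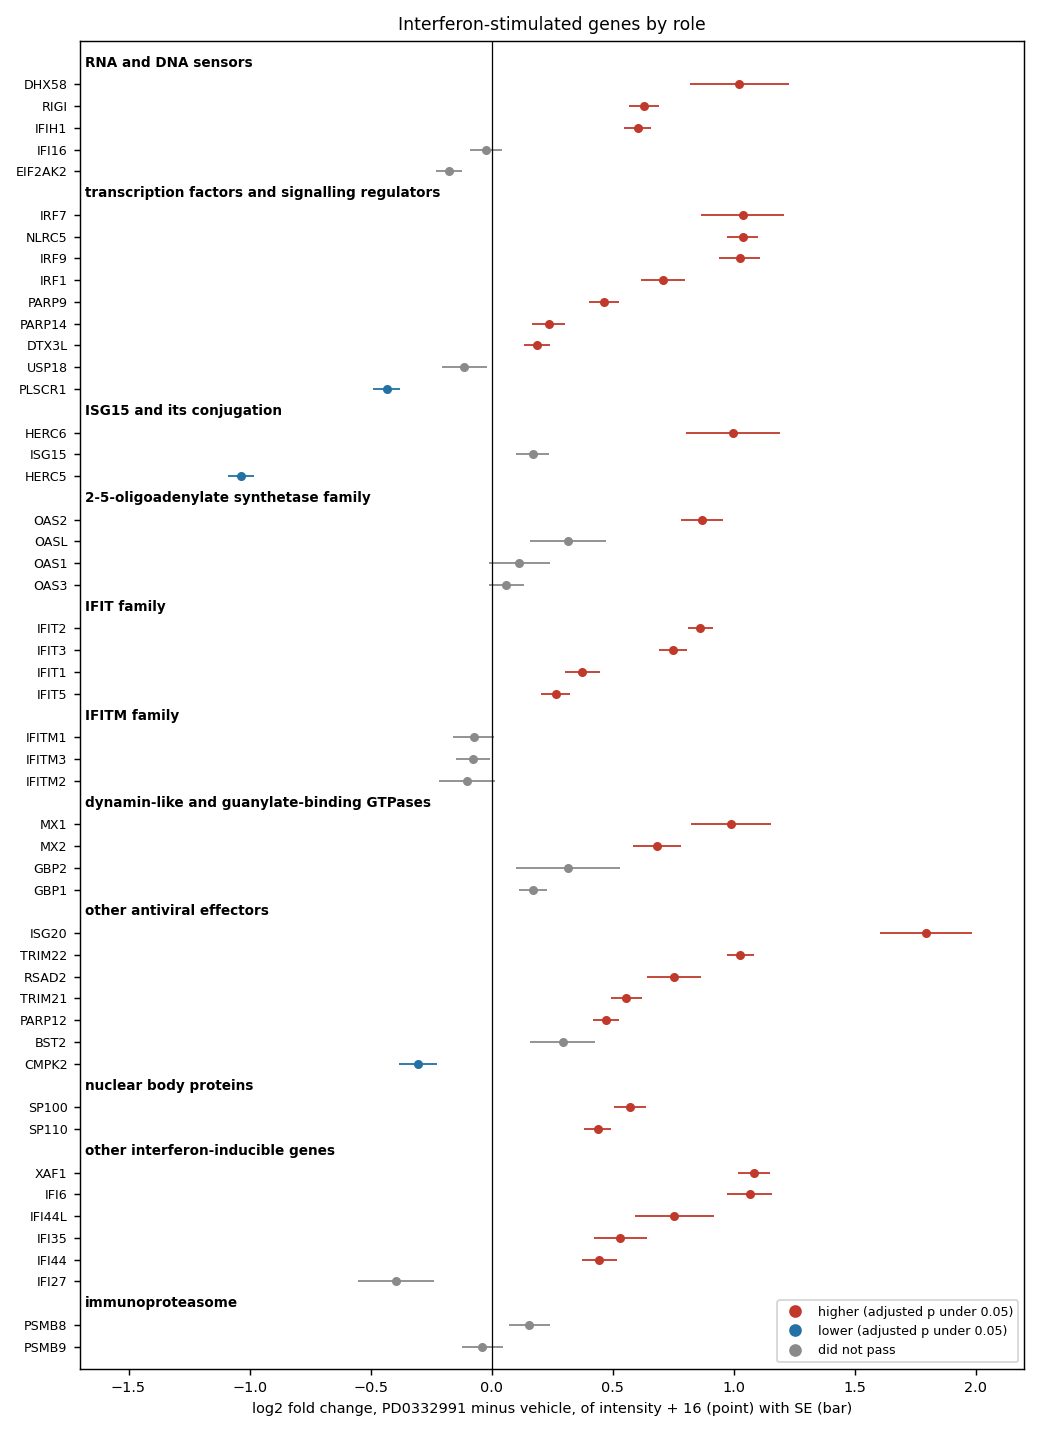
Log2 fold change of PD0332991 minus vehicle (horizontal, points, with bars of 1 SE from limma) for the 49 genes, grouped by role (rows). Red points passed as higher (30 genes), blue as lower (3) and grey did not pass (16).

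Cytosolic RNA helicases of the RIG-I family were all higher, DHX58 from low vehicle values. RIGI, which senses short double-stranded RNA, had intensities of 540, 497 and 512 with PD0332991, against 339, 313 and 332 with vehicle. The groups were well apart, and the gene rose by 0.63 on the log2 scale (SE 0.06, adjusted p = 7.6e-04 in limma), with its other 2 probe sets at 0.68 and 0.72. IFIH1, which encodes MDA5, the sensor of long double-stranded RNA, read 713, 735 and 720 with PD0332991 and 485, 474 and 453 with vehicle. It rose 1.52-fold, by 0.60 (SE 0.05, adjusted p = 5.5e-04), or by 0.31 when its 3 probe sets were averaged. The other 2 of them, at group means under 50, were at 0.07 and 0.27 and did not pass. DHX58, which encodes LGP2, a regulator of the other RNA helicases, read 106, 119 and 102 with PD0332991 and 29.3, 47.8 and 63.6 with vehicle. Its vehicle values were low and scattered, and its rise of 1.02 (SE 0.20, adjusted p = 0.012) became 0.65 with a pseudocount of 64.

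The other 2 sensors did not pass. IFI16, a sensor of DNA, had a log2 fold change of −0.02 and overlapping groups. EIF2AK2, which encodes the RNA-activated kinase PKR, read 1759, 1741 and 1746 with PD0332991 and 2024, 2018 and 1893 with vehicle. Its groups did not overlap, yet the difference of −0.18 (SE 0.05) missed the threshold at an adjusted p of 0.058. Without vehicle replicate 3 it passed as lower, at −0.21 (adjusted p = 0.041), and it also passed among brighter genes only, with a pseudocount of 64, with array weights and with a mean-variance trend (0.0077 to 0.023). Of its other 2 probe sets, a dimmer one fell by 0.28 on the log2 scale and one was at −0.04.

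Of the 9 measured regulators of transcription and signalling, 7 were higher and 1 lower (15.6% and 13.6% of all genes). The remaining 1 did not pass. IRF9, a DNA-binding subunit of ISGF3, read 401, 367 and 361 with PD0332991 and 166, 169 and 197 with vehicle. It rose 2.03-fold, by 1.02 (SE 0.08, adjusted p = 4.0e-04). IRF7, the factor that amplifies transcription of interferon alpha genes, read 224, 250 and 242 with PD0332991 and 88.6, 96.2 and 147 with vehicle, and rose by 1.04 (SE 0.17, adjusted p = 0.0059). Every PD0332991 array was above every vehicle array for both genes, although vehicle replicate 3 was the highest vehicle array for each.

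IRF1, a factor strongly induced by interferon gamma, read 2350, 2525 and 2350 with PD0332991, against 1320, 1467 and 1635 with vehicle. It rose by 0.71 (SE 0.09, adjusted p = 0.0022), and its other probe set rose by 1.19. NLRC5, a transactivator of the MHC class I genes, read 971, 858 and 932 in PD0332991 cells and 436, 436 and 448 in vehicle cells. Its rise was 2.05-fold, 1.04 on the log2 scale (SE 0.06, adjusted p = 1.5e-04).

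The ADP-ribosylation partners moved less. PARP9 rose by 0.46 (SE 0.06, adjusted p = 0.0027), from the probe set with group means of 966 with PD0332991 and 696 with vehicle. Its second probe set, at 425 with PD0332991 and 446 with vehicle, was at −0.07 and did not pass, and the mean over both gave 0.20 (adjusted p = 0.088). DTX3L, the ubiquitin ligase that pairs with PARP9, was at 0.19 (adjusted p = 0.043) and PARP14, a related transferase, at 0.23 (adjusted p = 0.047). Both calls are at the edge of the threshold: DTX3L lost its call without any 1 of the 6 arrays (adjusted p between 0.061 and 0.134), and PARP14 without any array except PD0332991 replicate 2 (0.093 to 0.131).

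PLSCR1, a phospholipid scramblase that can enhance interferon responses, went the other way. It read 977, 1047 and 969 with PD0332991 and 1359, 1355 and 1343 with vehicle, and fell by 0.43 on the log2 scale (SE 0.06, adjusted p = 0.0023). Its other 2 probe sets were at −0.32 and −0.35, and the first of these passed. USP18, the protease that removes ISG15 and restrains receptor signalling, was at −0.11 (SE 0.09) with overlapping groups.

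Genes of the ISG15 system moved in opposite directions. HERC5, the main ligase that attaches ISG15 in human cells, had 617, 602 and 634 with PD0332991, against 1312, 1270 and 1264 with vehicle. It fell 2.05-fold, a log2 fold change of −1.03 (SE 0.05, adjusted p = 7.6e-05), the largest decrease among the 49 genes. HERC6, its neighbour on chromosome 4 and the main ISG15 ligase in mouse, read 251, 248 and 241 with PD0332991 and 131, 146 and 80.1 with vehicle. It rose by 1.00 (SE 0.19, adjusted p = 0.011), with a second, very dim probe set at 0.13 and a mean over both of 0.56. ISG15 itself, the ubiquitin-like modifier, read 1913, 2081 and 1858 with PD0332991 and 1675, 1704 and 1817 with vehicle. Its groups did not overlap, but the difference of 0.17 (SE 0.07) did not pass (adjusted p = 0.126). It passed as higher among brighter genes only (adjusted p = 0.039) and with a mean-variance trend (0.038).

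Within the oligoadenylate synthetases, enzymes that activate the ribonuclease RNase L, OAS2 alone passed. OAS2 read 442, 503 and 495 with PD0332991 and 236, 250 and 281 with vehicle, a rise of 0.87 (SE 0.09, adjusted p = 8.3e-04), and its other 2 probe sets were higher too, by 0.49 and 0.66. OAS1 was at 0.11 (SE 0.13) and OAS3 at 0.06 (SE 0.07), each with overlapping groups. OASL, a family member without synthetase activity, was at 0.32 (adjusted p = 0.201) and passed without vehicle replicate 3, at 0.49 (adjusted p = 0.0087). A dimmer probe set of OASL, at 48.6 with PD0332991 and 27.8 with vehicle, was higher by 0.57.

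The 4 measured IFIT genes, which encode RNA-binding proteins that block translation of viral RNA and lie close together on chromosome 10, all rose. IFIT2 read 733, 702 and 708 with PD0332991 and 383, 390 and 385 with vehicle, a rise of 1.82-fold (log2 0.86, SE 0.05, adjusted p = 1.2e-04). IFIT3 read 748, 771 and 706 with PD0332991 and 437, 440 and 426 with vehicle, a rise of 1.68-fold. The second probe sets of IFIT2 and IFIT3 gave 0.79 and 0.77, close to the first. IFIT1 rose less, by 0.37 (SE 0.07), with 206, 195 and 223 in PD0332991 cells and 166, 150 and 155 in vehicle cells. IFIT5 rose by 0.26 (adjusted p = 0.019) but did not pass once vehicle replicate 1, vehicle replicate 2 or PD0332991 replicate 2 was left out (adjusted p 0.051, 0.070 and 0.0502).

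The IFITM genes, whose membrane proteins hinder virus entry, did not pass. IFITM1 read 3262, 3922 and 3503 with PD0332991 and 3609, 3685 and 3935 with vehicle, and its log2 fold change was −0.07 (SE 0.08). IFITM2 was at −0.10 (SE 0.12) and IFITM3 at −0.08 (SE 0.07). These 3 genes are close copies measured with 1 probe set each of a kind that can match several transcripts, so single members are uncertain.

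Both MX genes, which encode dynamin-like GTPases that trap viral particles, rose. MX1 read 154, 157 and 158 with PD0332991 and 72.0, 52.5 and 92.6 with vehicle, a rise of 0.99 (SE 0.16, adjusted p = 0.0060). MX2 read 166, 151 and 157 with PD0332991 and 81.1, 90.8 and 107 with vehicle, a rise of 0.68 (SE 0.10). In both, the PD0332991 arrays agree more closely than the vehicle arrays. The guanylate-binding proteins did not pass: GBP1 was at 0.17 (adjusted p = 0.077) without overlap of the groups, and GBP2 at 0.31 (adjusted p = 0.351), or 0.54 (adjusted p = 0.040) without vehicle replicate 3. GBP1 passed as higher with quantile normalization, 75th percentile centring, brighter genes only, a mean-variance trend or a pseudocount of 64 (adjusted p between 0.012 and 0.043), and 1 of its other 3 probe sets was higher, by 0.20.

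Of the 7 other antiviral effectors, 5 rose and 1 fell (15.6% and 13.6% of all genes), and 1 did not pass. ISG20, an exonuclease that degrades RNA, had the largest increase of all 49 genes, with 229, 251 and 230 in PD0332991 cells and 53.2, 41.6 and 81.2 in vehicle cells. The change was 3.47-fold, 1.79 on the log2 scale (SE 0.19, adjusted p = 0.0010), and its second probe set gave 1.49. Vehicle values of ISG20 were low and scattered, and its rise ran between 1.31 and 2.05 over the alternative settings given below. TRIM22, a ubiquitin ligase that restricts viral transcription, was bright in both groups, with 3305, 3302 and 3137 in PD0332991 cells and 1551, 1637 and 1570 in vehicle cells, and rose by 1.03 (SE 0.06, adjusted p = 9.1e-05). TRIM21, a cytosolic antibody receptor, rose by 0.56 (SE 0.06) and PARP12, which binds viral RNA, by 0.47 (SE 0.05). BST2, or tetherin, which holds budding viruses at the cell surface, was at 0.29 (adjusted p = 0.168) and passed without PD0332991 replicate 1, at 0.42 (adjusted p = 0.036).

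RSAD2 and CMPK2 are adjacent on chromosome 2 and are read in opposite directions, and they changed in opposite directions. RSAD2 encodes viperin, which turns CTP into a chain-terminating nucleotide, and CMPK2 encodes a mitochondrial nucleotide kinase. RSAD2 read 380, 420 and 445 with PD0332991 and 205, 252 and 265 with vehicle, a rise of 0.75 (SE 0.11, adjusted p = 0.0038), and its second probe set gave 0.71. CMPK2 read 913, 1081 and 1053 with PD0332991 and 1211, 1279 and 1273 with vehicle, a log2 fold change of −0.30 (SE 0.08, adjusted p = 0.034). The PD0332991 arrays of CMPK2 all lay below the vehicle arrays, but the call was lost without vehicle replicate 1, 2 or 3 or PD0332991 replicate 3 (adjusted p 0.073, 0.105, 0.079 and 0.066).

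**Figure D3:**
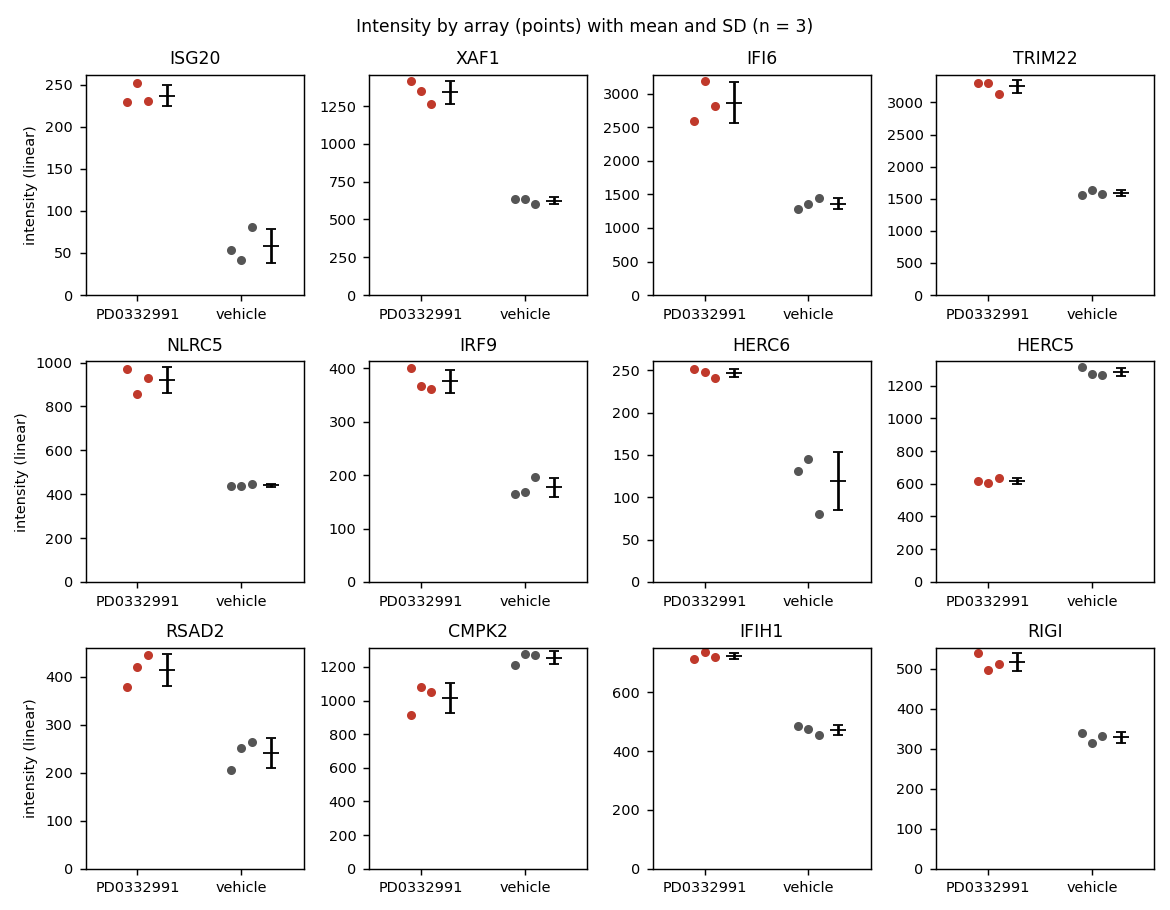
Intensity (vertical, linear scale from 0) of 12 genes on each PD0332991 array (left, red) and each vehicle array (right, grey), with the mean and SD of each group (n = 3) beside the points. HERC5 and CMPK2 lie lower with PD0332991 while their neighbours HERC6 and RSAD2 lie higher.

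The nuclear body genes SP100 and SP110 both rose on the probe sets used. SP110 read 1239, 1268 and 1293 with PD0332991 and 907, 967 and 920 with vehicle, a rise of 0.44 (SE 0.06), and its other 4 probe sets were all higher. SP100 rose by 0.57 (SE 0.06) to 1183 ± 75.2 with PD0332991, against 790 ± 8.52 with vehicle (SD, n = 3 each). Of its other 5 probe sets 1 was higher, by 0.85, and 4 did not pass, among them 1 at −0.11, and the mean over all 6 was 0.31 higher.

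Of the 6 remaining interferon-inducible genes, 5 rose (15.6% of all genes) and 1 did not pass. XAF1, which antagonises the caspase inhibitor XIAP, read 1413, 1351 and 1262 with PD0332991 and 637, 636 and 599 with vehicle. It rose 2.12-fold (log2 1.08, SE 0.07, adjusted p = 1.3e-04), and its other 2 probe sets were higher by 1.08 and 0.64. IFI6, a small membrane protein that can protect cells from apoptosis, read 2591, 3194 and 2822 with PD0332991 and 1279, 1359 and 1441 with vehicle, 2.09-fold higher (log2 1.06, SE 0.09).

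The neighbours IFI44L and IFI44 rose by 0.75 (SE 0.16) and 0.44 (SE 0.07), and IFI44 by 0.28 on its other probe set. The rise of IFI44L did not pass once vehicle replicate 2, PD0332991 replicate 2 or PD0332991 replicate 3 was left out (adjusted p 0.052, 0.0503 and 0.059). IFI35, a leucine-zipper protein, rose by 0.53 (SE 0.11), and its adjusted p was 0.0501 without PD0332991 replicate 3. IFI27 was very dim in both groups, with 9.64, 12.2 and 23.0 in PD0332991 cells and 25.2, 23.6 and 23.3 in vehicle cells. Its difference of −0.40 (SE 0.16) did not pass, and passed at −0.57 (adjusted p = 0.0068) without PD0332991 replicate 3.

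The immunoproteasome subunits PSMB8 and PSMB9, which cut proteins into peptides for MHC class I, did not pass. PSMB8 read 1686, 2037 and 1882 with PD0332991 and 1643, 1625 and 1748 with vehicle, at 0.16 (SE 0.08, adjusted p = 0.241). PSMB9 was at −0.04 (SE 0.09). Singled out after their values were seen, PSMB8, PSMB9, IFITM1, IFITM2, OAS1 and BST2 each had PD0332991 replicate 2 as their highest PD0332991 array. This was not particular to genes that did not pass, since it also held for ISG20, IFI6, IRF1, IRF7 and TRIM21, which rose.

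**Figure D4:**
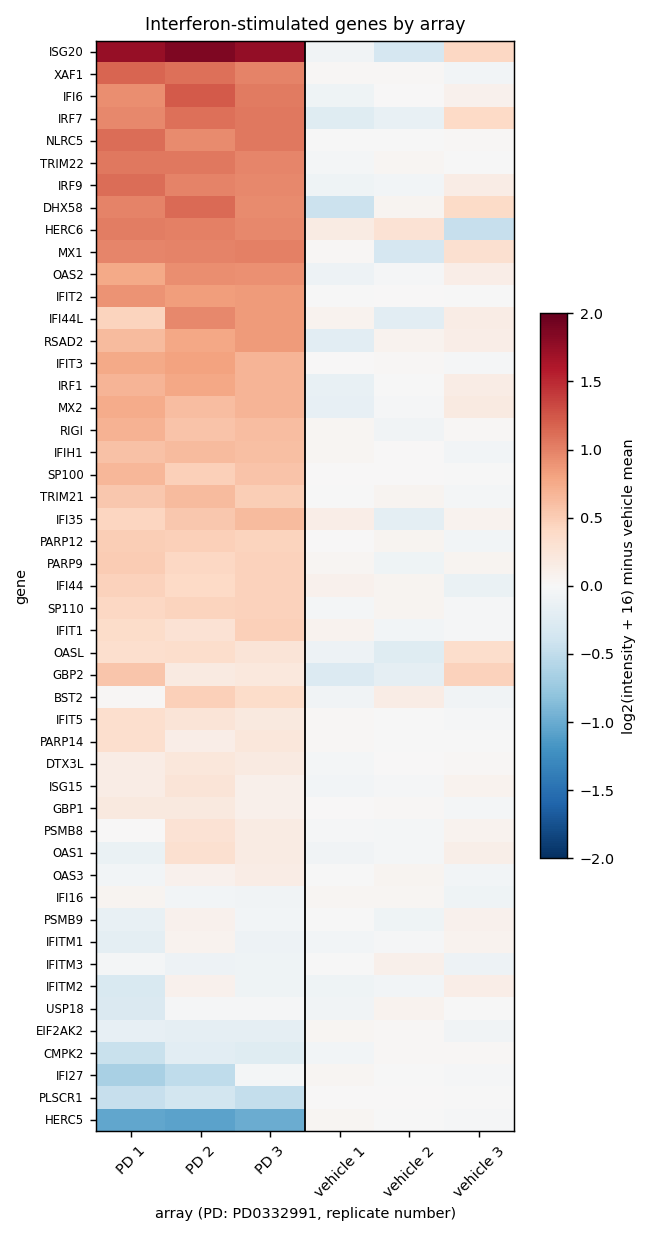
Log2(intensity + 16) minus the vehicle mean (colour) for the 49 genes (rows, by log2 fold change) on each array (columns, PD0332991 left of vehicle). The upper rows are red on all 3 PD0332991 arrays, HERC5 and PLSCR1 at the bottom are blue on all 3, and vehicle replicate 3 differs from the other vehicle arrays in several dim genes such as ISG20, IRF7 and GBP2.

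Different probe sets of a gene gave mostly the same direction. Of the 49 genes, 24 had more than 1 probe set, with 40 probe sets beside those used. Of these 40, 34 had the same sign as the probe set used. For the higher genes, called here in a fit over all probe sets with 1 symbol, 17 of 26 other probe sets were higher, 0 were lower and 9 did not pass.

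**Figure D5:**
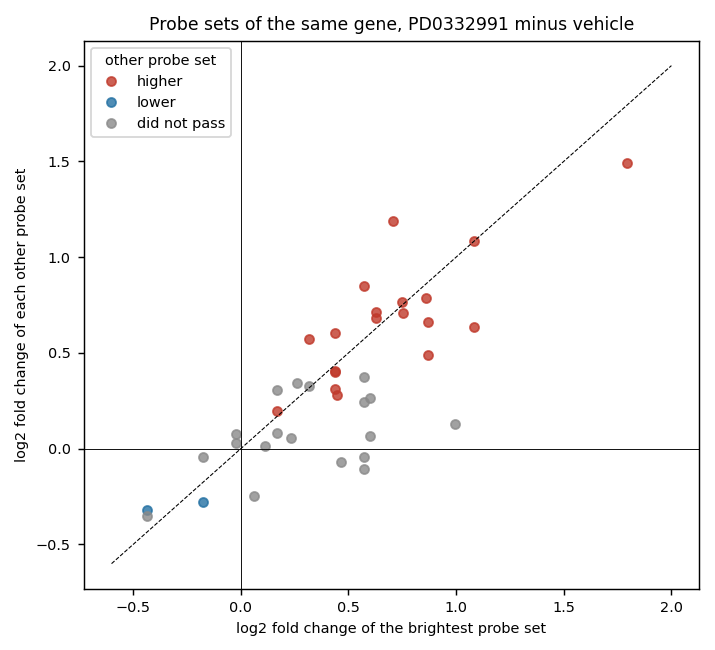
Log2 fold change of each other probe set (vertical) against that of the brightest probe set of its gene (horizontal), PD0332991 minus vehicle, 40 points in 24 genes. Most points lie near the dashed line of equality, and SP100, PARP9 and OAS3 hold points below 0 at positive values of the brightest probe set.

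Position and promoter letters were then set beside the changes. Among the 49 genes, 16 pairs follow each other along a chromosome with at most 4 protein-coding genes between them. In 8 of the pairs both genes rose, but 61.2% of the 49 genes were higher wherever they lie. The pairs also share genes, with 27 genes in the 16 pairs, and a part of position was not tested. In 2 pairs the genes were called in opposite directions, HERC6 with HERC5 and RSAD2 with CMPK2. The changes of HERC6 and HERC5 differed by 2.03 on the log2 scale, and those of RSAD2 and CMPK2 by 1.06. These pairs were singled out after their values were seen, so the differences were not tested. A window of CMPK2 and a window of RSAD2 share 165 bases at chr2:6865770-6865934.

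Genes with the response-element core were found among those that rose, those that fell and those that did not pass. The core was in 15 of 23 higher genes with a window, in 2 of 3 lower ones and in 9 of 12 that did not pass. The stretches printed above include ISG20 and IFI6, which rose, ISG15, which did not pass, and HERC5 and PLSCR1, which fell. The HERC5 stretch holds 3 copies, more than that of ISG20 with 1. The 26 genes with the core had a median log2 fold change of 0.28 and the 12 without it 0.55, XAF1, RIGI, IRF9 and HERC6 being among the 12. IRF1 and IRF9 hold the gamma-activated site shown above and no core.

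Upstream, some components of the interferon receptor pathways were higher while interferon genes were dim. Of 15 measured receptors, kinases and feedback genes, 6 were higher and 1 lower (15.6% and 13.6% of all genes), with a median of 0.15. Among brighter genes only, 3261 of 9888 were higher, so a count of 6 is not far above that share. IFNAR1, a chain of the type I interferon receptor, read 423, 404 and 426 with PD0332991 and 259, 254 and 258 with vehicle, a rise of 0.67 (SE 0.05, adjusted p = 3.2e-04). IFNAR2, the other chain, was at 0.09 (SE 0.06) and did not pass. The receptor kinases TYK2, JAK2 and JAK1 rose by 0.64, 0.73 and 0.54, and IFNGR2, a chain of the interferon gamma receptor, fell by 0.55 on the log2 scale.

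Of 18 measured interferon genes, 1 was higher in limma and none lower, beside 15.6% and 13.6% of all genes. The counts of interferon genes are the same at an unadjusted p under 0.05. All 18 had group means under 100 with PD0332991 and with vehicle. The higher one, IFNG, which encodes interferon gamma, read 56.6, 70.0 and 67.8 with PD0332991 and 12.1, 10.9 and 18.0 with vehicle. It passed with an adjusted p of 3.4e-04, but its vehicle values lie around the pseudocount of 16 and cannot be told from background, so no fold change is given.

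Of 25 measured genes of nucleic acid sensing, 11 were higher and 3 lower (15.6% and 13.6% of all genes), with a median of 0.20. SAMHD1, a nucleotide hydrolase that restricts viruses, read 480, 514 and 451 with PD0332991 and 127, 120 and 153 with vehicle, 3.35-fold higher (log2 1.74, SE 0.10). The endosomal RNA receptors TLR3 and TLR7 rose by 0.85 and 0.84. RNASEH2A, the catalytic subunit of the RNase H complex that removes RNA from DNA, fell by 1.40 on the log2 scale (SE 0.11), with 269, 344 and 347 in PD0332991 cells and 892, 882 and 820 in vehicle cells.

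Of 39 further interferon-stimulated genes measured outside the list, 21 were higher and 1 was lower (15.6% and 13.6% of all genes), with a median of 0.32. SAMD9L, an antiviral and growth-restraining factor, read 829, 760 and 860 with PD0332991 and 276, 286 and 258 with vehicle, a rise of 1.52 (SE 0.07). RTP4 rose by 1.39, GBP4 by 1.05 and RNF213, a large ubiquitin ligase, by 0.99. Over these pathway lists together, 39 of 97 measured genes were higher and 5 lower, beside the same shares of all genes. With the probe sets of each gene averaged, 35 of the 97 were higher and 7 lower.

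Markers of the T lineage were bright on the arrays, and markers of other cell types were mostly dim, beside the median gene. The sums below compare arrays and not cell types, since probe sets differ. A single gene can lead a sum, as NKG7 did among NK-cell markers, at means of 646 with PD0332991 and 413 with vehicle. All 14 T lineage markers lay at or above the median gene, with summed intensities of 42118 to 43575 with PD0332991 and 33341 to 35457 with vehicle. Of the 14, 10 were higher and 0 lower in limma, beside 15.6% and 13.6% of all genes. Among brighter genes only, 3261 of 9888 were higher. A larger share of these chosen markers than of the interferon-stimulated genes was higher, while their median log2 fold change of 0.37 was below the 0.44 of those genes. Of 8 markers of plasmacytoid dendritic cells, the main interferon producers, 6 lay below the median gene, with sums of 556 to 614 with PD0332991 and 397 to 459 with vehicle. TLR7 and TLR9 were higher among them, whereas the defining markers CLEC4C and LILRA4 had means of 32.7 and 20.3 with PD0332991, 23.1 and 31.8 with vehicle, and did not pass. Sums of the 7 B-cell markers were 1114 to 1276 with PD0332991 and 778 to 881 with vehicle, with CD79A and BLK higher and MS4A1 at means of 38.7 and 49.5. Sums of the 6 NK-cell markers were 769 to 877 with PD0332991 and 564 to 603 with vehicle, NKG7 being the 1 that was higher, and KLRD1 was under 16 on all arrays. Of 10 monocyte markers, whose sums were 490 to 529 with PD0332991 and 620 to 651 with vehicle, CD14, S100A9 and FCGR1A were under 16 on all arrays, CD163 was higher and VCAN lower. Fibroblast marker sums overlapped, at 294 to 333 with PD0332991 and 314 to 349 with vehicle. The part of these markers in the results above was not tested.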

How the data were processed

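Biotin-labelled total RNA of 6 KOPTK1 cultures was hybridised to one-colour Affymetrix arrays, per the labels' protocols. The authors deposited 1 intensity per probe set and array, on a linear scale, for 54675 probe sets. The method of summarisation and scaling is not stated in the labels or file headers. Array medians lay between 49.1 and 54.3, and the intensities were used as deposited. They are therefore relative to the rest of an array's RNA, and no detection call comes with them. The number of arrays limits the precision. Per the submitters, replicates are biological, and no batch is given.

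After 62 control probe sets were left out, the platform annotation gave 1 gene symbol for 41091 probe sets, several for 1801 and none for 11721. Gene IDs were matched for current symbols to the RefSeq table of GRCh38.p14, in which 54 probe sets had no entry. The brightest probe set stood for its gene. Log2(intensity + 16) was compared between groups by a linear model in limma 3.58.1 (R 4.3.3) with moderated two-sided tests on 4 residual degrees of freedom. Adjusted p-values are limma's, by the Benjamini-Hochberg method over all 19775 genes, and 0.05 was the threshold. The code was tested on simulated data. Any of the listed genes could be named with its values, and of each other pathway list the up to 4 passing genes with the largest changes, plus IFNAR1, IFNAR2, JAK1 and TYK2. One further gene of that rule is not reported here. The listed genes, roles and pathway lists were chosen with earlier results of these data known. Results were recomputed without each array, with the replicate number as a block, with quantile normalization, with arrays centred on their median or 75th percentile, and with pseudocounts of 1 and 64. Further alternatives used array weights, a mean-variance trend, a threshold of 0.01, brighter genes, averaged probe sets, or no probe sets of the _x_at and _s_at kinds, which are less specific. Figures were drawn with matplotlib 3.10.9.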

Additional observations from a re-analysis of the deposited data

How the results depend on the processing

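Over 18 alternatives, 803 of 866 recomputed values of single interferon-stimulated genes kept their side of the threshold with no change of a called direction. Of the others, 44 lost a call, 17 gained one and 2, of called genes, changed sign. Sign changes of genes that passed in neither fit are counted in the 803. An example is PSMB9, at −0.04 in the main fit and 0.0095 with quantile normalization. With the less specific _x_at and _s_at probe sets removed, PARP9 was at −0.068 (adjusted p = 0.748) and SP100 at −0.11 (adjusted p = 0.366), and PLSCR1 did not pass (adjusted p = 0.065), since another probe set stands for each there. Leaving aside the stricter threshold, 24 of the 33 called genes kept their call wherever they were measured in the 17 other alternatives. Of these, 19 were measured in all 17, and 5 were not (DHX58 among brighter genes, and IRF7, TRIM22, PARP12 and SP110 with the less specific probe sets removed). The exceptions were DTX3L and PARP14 (10 alternatives each), CMPK2 (5), IFIT5 (4), IFI44L (3), PARP9 (2), and IFI35, PLSCR1 and SP100 (1 each). The median log2 fold change of the list, 0.44, was 0.50 with quantile normalization, 0.41 with median centring, 0.49 with 75th percentile centring, 0.36 with the mean of probe sets, 0.37 with the less specific probe sets removed (37 genes measured) and 0.42 with a pseudocount of 64. With 1 array left out it ran between 0.43 and 0.49, with 26 to 30 genes higher and 2 to 3 lower. Over all genes, 2170 to 3171 were higher and 2081 to 2518 lower with 1 array left out, and 1787 and 1736 at an adjusted p under 0.01, beside 3088 and 2698. Of the other pathway genes, 33 to 39 were higher and 5 to 7 lower with 1 array left out, and 8 were lower among brighter genes (65 measured). With the replicate number as a block, 28 listed genes were higher and 3 lower, PARP14 (adjusted p = 0.082) and DTX3L (0.099) losing their calls, and over all genes 2520 were higher and 2273 lower. Same-numbered arrays deviated together only weakly (correlations over genes of 0.0033, 0.076 and 0.083), so the number was not taken to pair them. Vehicle replicate 1 correlated best with PD0332991 replicate 2, not with its own number. Dim genes, for which an intensity cannot be told from background, limit what can be said of the interferon genes, IFI27 and DHX58. The low vehicle values of ISG20 likewise limit what can be said of the size of its rise.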

Other observations

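The motif search also reached genes outside the list. Of 587 other tested genes with the response-element core in a window, 25.2% were higher and 9.03% lower after PD0332991, beside 15.6% and 13.6% of all genes, with a median log2 fold change of 0.08 beside 0.01. The 587 were drawn from the 15384 tested genes with a window, whereas all genes include those without one. Only the listed genes were left out, so the 587 can still hold other interferon-stimulated genes. The set of 587 was formed after the data had been seen and was given no test.

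The spread within groups differed from gene to gene among the 30 that rose. The SD was larger with PD0332991 in 17 of them and larger with vehicle in 13. MX1 was 156 ± 2.15 with PD0332991 and 72.4 ± 20.1 with vehicle, and HERC6 was 247 ± 5.19 with PD0332991 and 119 ± 34.4 with vehicle, whereas IFI6 was 2869 ± 304 with PD0332991 and 1360 ± 80.8 with vehicle, and SP100 was 1183 ± 75.2 with PD0332991 and 790 ± 8.52 with vehicle (SD, n = 3 each).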
